A study of Mus musculus with 9 samples.

Results

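The 8 genes described here encode the scaffolds and signalling proteins that lie under the receptors of hippocampal synapses. They are Dlg4, Shank1, Shank2, Shank3, Homer1 and Camk2a of excitatory synapses, and Gphn and Nlgn2 of inhibitory synapses. They were chosen by symbol among the 57180 genes of the deposited table, and each symbol matched 1 row. RNA-seq was performed on whole hippocampus, frozen after dissection, of 11-day-old C57BL6 mice. 4 mice (cKO) carried a knockout of Slc38a3, which encodes the glutamine transporter SNAT3, restricted to endothelial cells, and 5 were wild type (WT). Males numbered 3 of the 4 cKO mice and 1 of the 5 WT mice, the others being female. The sources used here give neither the Cre line nor the deleted exons, and the labels name no further allele or treatment.

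At an excitatory synapse the postsynaptic density is built in layers. PSD-95, the product of Dlg4, holds glutamate receptors and adhesion proteins at the membrane, Shank proteins form the deeper layer, and Homer proteins join Shanks to metabotropic glutamate receptors. CaMKII, whose alpha subunit is encoded by Camk2a, is the calcium-activated kinase of this structure and is needed for long-term potentiation. Inhibitory synapses use other proteins: gephyrin anchors glycine and GABA-A receptors, and neuroligin-2 spans the membrane and binds neurexins on the presynaptic side. In rodents the second postnatal week is a time of rapid synapse formation in the hippocampus.

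Of all genes tested, 0.346% differed between cKO and WT hippocampus (adjusted p under 0.05, limma on log2 values with sex in the model). None of the 8 genes passed that test. All of them were abundant, and the standard errors of their changes, 0.0366 to 0.0584 in log2, were below the median of 0.0815 over all genes tested. Within cKO, however, Camk2a and Shank1 spread more than the median gene (SD of log2 values 0.130 and 0.112, against 0.110). The largest fitted difference was that of Homer1, at -9.66% in cKO (95% interval -16.7% to -1.99%), and the smallest that of Dlg4, at -1.98% (95% interval -7.19% to 3.52%). Homer1 was also the 1 gene of the 8 whose cKO libraries all lay below all WT libraries, where 6.29% of all genes tested had groups that did not overlap in either direction. Every fitted difference was below 0 with sex in the model. In bulk tissue, fewer cells of a type and less RNA per cell cannot be told apart.

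The promoters of Homer1 and Shank3, the genes with the smallest p-values of the 8, are shown so that the letters around their start sites can be read beside the values. Both are RefSeq windows of GRCm38.p6, from 250 bases before to 50 bases after an annotated start, on the plus strand: chr13:93303507-93303806 for Homer1 and chr15:89499358-89499657 for Shank3. Capitals mark TGACG or its reverse complement CGTCA, the core of the cAMP response element, on either strand.
Homer1 promoter: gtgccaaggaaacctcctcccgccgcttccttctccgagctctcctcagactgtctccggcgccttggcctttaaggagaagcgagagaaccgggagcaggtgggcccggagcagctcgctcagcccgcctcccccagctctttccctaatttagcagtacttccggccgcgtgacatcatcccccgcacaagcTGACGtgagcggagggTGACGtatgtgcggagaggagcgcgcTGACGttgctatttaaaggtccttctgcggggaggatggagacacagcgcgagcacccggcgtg
Shank3 promoter: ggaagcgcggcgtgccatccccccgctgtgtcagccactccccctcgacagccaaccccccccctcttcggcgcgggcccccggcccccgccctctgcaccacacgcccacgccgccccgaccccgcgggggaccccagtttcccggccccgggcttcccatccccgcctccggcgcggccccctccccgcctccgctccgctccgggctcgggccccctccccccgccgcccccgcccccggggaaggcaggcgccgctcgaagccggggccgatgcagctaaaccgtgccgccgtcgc
The Homer1 window held 3 such cores, which begin 56, 40 and 14 bases before the start, and the Shank3 window held 0. The core was found in 20.8% of all 32851 windows of that length, and the full palindrome TGACGTCA, which includes 2 overlapping cores, in 1.79% and in neither gene's window. The Homer1 window had 63.0% G and C and 26 CG dinucleotides, and the Shank3 window 81.0% and 40, against medians of 52.7% and 7 over all windows. The GC box GGGCGG (reverse complement CCGCCC) was found 4 times in the Shank3 window and 0 times in that of Homer1, and in 35.7% of all windows. A second annotated start of Homer1 has a window with 0 cores. Among the other genes with windows, Nlgn2 had 1 core, a Dlg4 window 1 and its further windows 0, and Gphn 0. The share of 20.8% counts windows with at least 1 core, whatever their content of CG, which the core itself holds. These matches describe letters, and no binding was measured. Windows were found for 5 of the 8 genes.

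Libraries were of similar depth, with 32096409 to 34034530 recovered reads in cKO and 30803135 to 33134405 in WT, and the RNA integrity number was 9.7 to 9.9 in all samples per the labels. Slc38a3 itself was at 307.7 to 405.4 normalized counts in the cKO libraries and at 1804 to 3514 in the WT libraries, so every library matched its genotype label. WT replicates 2 and 5 stood lower in it than the other WT libraries, at 2033 and 1804. Without those libraries 0 of the 8 genes passed and the smallest limma adjusted p among them was 0.652, against 0.329 with all libraries. The hippocampal neuron gene Prox1 was at 5918 to 7122 normalized counts in cKO and 6640 to 7188 in WT, and Neurod6 at 8712 to 10153 in cKO and 9132 to 10259 in WT. Choroid plexus RNA varied widely within both groups, with its marker Ttr at 210.9 to 31055 in cKO and 258.3 to 41329 in WT.

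Levels of the 8 genes were first compared with each other per length. Normalized counts (reads per gene divided by a size factor per library, by the authors) were divided by the summed exon length of each gene in GENCODE vM21. Camk2a stood far above the rest, with 10996 ± 988 normalized counts per kb of exon (mean ± SD) over the 4 cKO libraries and 12353 ± 482 over the 5 WT libraries, at percentile 99.8 of the 16701 tested genes with a length. Shank1, Dlg4 and Nlgn2 followed at means of 2033, 1942 and 1870 over all 9 libraries, and the library ranges of Shank1 and Dlg4, and of Dlg4 and Nlgn2, overlapped. Shank3 at 1137, Gphn at 959.8, Shank2 at 675.8 and Homer1 at 391.6 came next, and none of these overlapped with its neighbour in the order. Homer1, the lowest of the 8, was at percentile 75.4. The exon length is the union over all annotated isoforms, so a gene is scaled down by exons that only some of its transcripts carry.

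**Figure D1:**
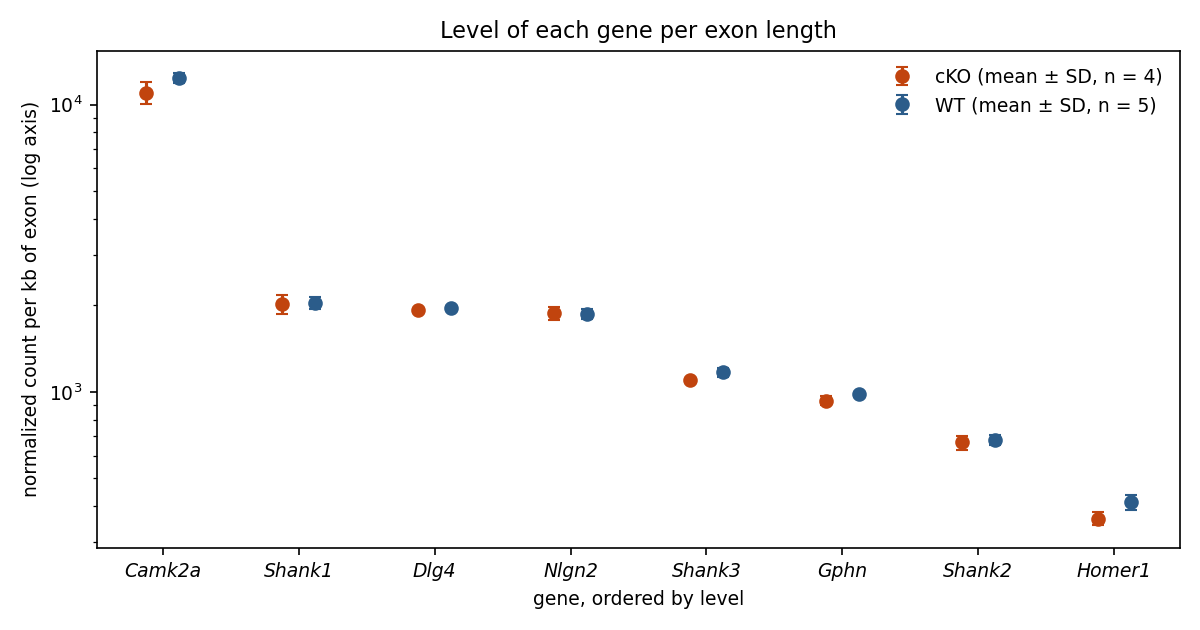
Mean level of each gene per kb of exon on a log axis, in cKO (left of each pair, n = 4) and WT (n = 5), with SD. Camk2a has means of 10996 and 12353 in cKO and WT, and the means of the other 7 genes lie between 363 and 2044.

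Dlg4 (ENSMUSG00000020886, GRCm39 chromosome 11, 69907767 to 69938348) encodes PSD-95, the main scaffold of the excitatory postsynaptic density. In cKO replicates 1 to 4 there were 25643, 25544, 25681 and 24964 normalized counts, and the WT replicates 1 to 5 held 26089, 25721, 26173, 25443 and 26362. The groups overlapped, and the whole range of the 9 libraries was under that of any other gene of the 8 in relative terms. The coefficient of variation was 1.31% in cKO and 1.43% in WT, against 0.618% and 0.626% from read counting alone. On the log2 scale the fitted difference was -0.03 ± 0.0366 (SE, limma adjusted p = 0.801).

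The 3 Shank genes encode large proteins that bind PSD-95 through its partner GKAP and bind Homer directly. Shank1 (ENSMUSG00000038738, chromosome 7, 43959676 to 44009996) held 21910, 18941, 22593 and 21449 normalized counts in cKO replicates 1 to 4. In WT replicates 1 to 5 it held 22699, 20448, 20926, 20977 and 22405. The only cKO female was the lowest library of all, and the only WT male the highest. With sex in the model, cKO differed by -0.11 ± 0.0450 in log2 (SE, unadjusted p = 0.0348, limma adjusted p = 0.403). Without the cKO female, replicate 2, the genotype difference rests on the males alone, 3 cKO against 1 WT, and was -0.05. Without the WT male, replicate 1, it rests on the females alone, 1 cKO against 4 WT, and was -0.16. Without a sex term it was -0.02, since the groups' means, 21223 ± 1592 in cKO and 21491 ± 996 in WT, hardly differed.

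Shank2 (ENSMUSG00000037541, chromosome 7, 143555664 to 143978231) held 7617, 6659, 7260 and 7196 normalized counts in cKO replicates 1 to 4, and 7486, 7096, 7141, 7235 and 7798 in WT replicates 1 to 5. As for Shank1, the cKO female was the lowest library, and the other 3 cKO libraries lay inside the WT range. Its log2 fold change of -0.08 ± 0.0462 (SE, limma adjusted p = 0.526) became -0.03 without cKO replicate 2 and -0.14 without WT replicate 1. Here too these rest on the males alone and on the females alone.

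Shank3 (ENSMUSG00000022623, chromosome 15, 89383825 to 89444464), the member of the family whose loss is linked to Phelan-McDermid syndrome in humans, held 10225, 10138, 10049 and 9903 normalized counts in cKO replicates 1 to 4. In WT replicates 1 to 5 it held 11186, 10504, 10971, 10168 and 10869. WT replicate 4 lay inside the cKO range, and the other 4 WT libraries lay above all cKO libraries. The cKO libraries were close together, with a coefficient of variation of 1.37% in cKO and 3.76% in WT. This gave a log2 fold change of -0.11 ± 0.0410 (SE, unadjusted p = 0.0193, limma adjusted p = 0.331), and of -0.07 without WT replicate 1, the highest library. The latter value rests on the females alone, with 1 cKO library. Set against Dlg4 within each library, which removes the scaling between libraries, Shank3 was at 0.391 to 0.399 reads per Dlg4 read in cKO and 0.400 to 0.429 in WT. The groups did not overlap in that ratio, but only narrowly. The highest cKO ratio, 0.3988, and the lowest WT ratio, 0.3997, were closer together than the SD of either group, 0.0032 and 0.0110. How often such ratios separate the groups over all genes was not computed. It is 1 of 7 ratios to Dlg4 that were computed, and the other 6 overlapped.

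Homer1 (ENSMUSG00000007617, chromosome 13, 93436142 to 93541637) encodes the adaptor that joins Shank proteins to metabotropic glutamate receptors, and its gene also gives a short form that neuronal activity induces. It had 4108, 4470, 4204 and 4599 normalized counts in cKO replicates 1 to 4, and the WT replicates 1 to 5 held 4676, 4967.7, 4684, 5112 and 5383. All cKO libraries lay below all WT libraries, although the highest cKO library, 4599, and the lowest WT library, 4676, were closer together than the SD of either group. Of all genes tested, 3.72% were lower in cKO without overlap. Mean and SD were 4345 ± 228 over the 4 cKO libraries and 4964 ± 299.6 over the 5 WT libraries. Fitted with sex, cKO differed by -0.15 ± 0.0546 in log2 (SE, unadjusted p = 0.0183, limma adjusted p = 0.329). Within females it was -0.17 and within males -0.12, each with 1 library in 1 of the groups. Without a sex term it was -0.19 (limma adjusted p = 0.0720), the smallest adjusted p of any of the 8 genes under any alternative. The values count the whole gene, so the short and long forms of Homer1 could not be told apart.

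Camk2a (ENSMUSG00000024617, chromosome 18, 61058689 to 61121224) held 74677, 88565, 76804 and 88294 normalized counts in cKO replicates 1 to 4, and 86950, 95408, 94510, 90029 and 94196 in WT replicates 1 to 5. Replicates 1 and 3, both male, were low among the cKO libraries, while replicates 2 and 4 lay inside the lower end of the WT range. Mean and SD were 82085 ± 7378 over the 4 cKO libraries and 92218 ± 3602 over the 5 WT libraries. In log2, cKO differed by -0.10 ± 0.0584 with sex as a term (SE, limma adjusted p = 0.538) and -0.17 without it (limma adjusted p = 0.163). Read counting would give a coefficient of variation of 0.344% in cKO and 0.332% in WT, against 8.99% and 3.91% measured, so nearly all of the spread lay between animals or samples.

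Gphn (ENSMUSG00000047454, chromosome 12, 78273152 to 78731546) encodes gephyrin, which also takes part in molybdenum cofactor synthesis outside synapses. It held 3562, 3505, 3319 and 3615 normalized counts in cKO replicates 1 to 4, and 3679, 3609, 3630.2, 3815 and 3652 in WT replicates 1 to 5. The highest cKO library, 3615, lay above the lowest WT library, 3609, and the other 3 lay below all WT libraries. The fitted log2 difference was -0.07 ± 0.0436 (SE, limma adjusted p = 0.565). A predicted gene that overlaps the Gphn span, Gm48226, had a mean of 148 normalized counts, and whether reads were counted by strand is not stated. Genes with a mean of at least 10 that overlap the span summed to 4.13% of the Gphn level. The corresponding share was 0.205% for Shank1 and 0 for the other 6 genes.

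Nlgn2 (ENSMUSG00000051790, chromosome 11, 69713947 to 69728610) held 11536, 10328, 11126 and 10489 normalized counts in cKO replicates 1 to 4, and 11400, 10324, 10576, 10566 and 11017 in WT replicates 1 to 5. Nlgn2 encodes neuroligin-2, and its groups overlapped almost wholly, with means of 10870 ± 562 over the 4 cKO libraries and 10776 ± 429 over the 5 WT libraries (± SD). Its log2 fold change was -0.04 ± 0.0426 with sex as a term (SE, limma adjusted p = 0.741) and 0.01 without it. Within each library Nlgn2 was at 0.404 to 0.450 reads per Dlg4 read in cKO and 0.401 to 0.437 in WT, and Gphn at 0.129 to 0.145 in cKO and 0.139 to 0.150 in WT. Neither ratio of an inhibitory to an excitatory scaffold separated the groups.

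**Figure D2:**
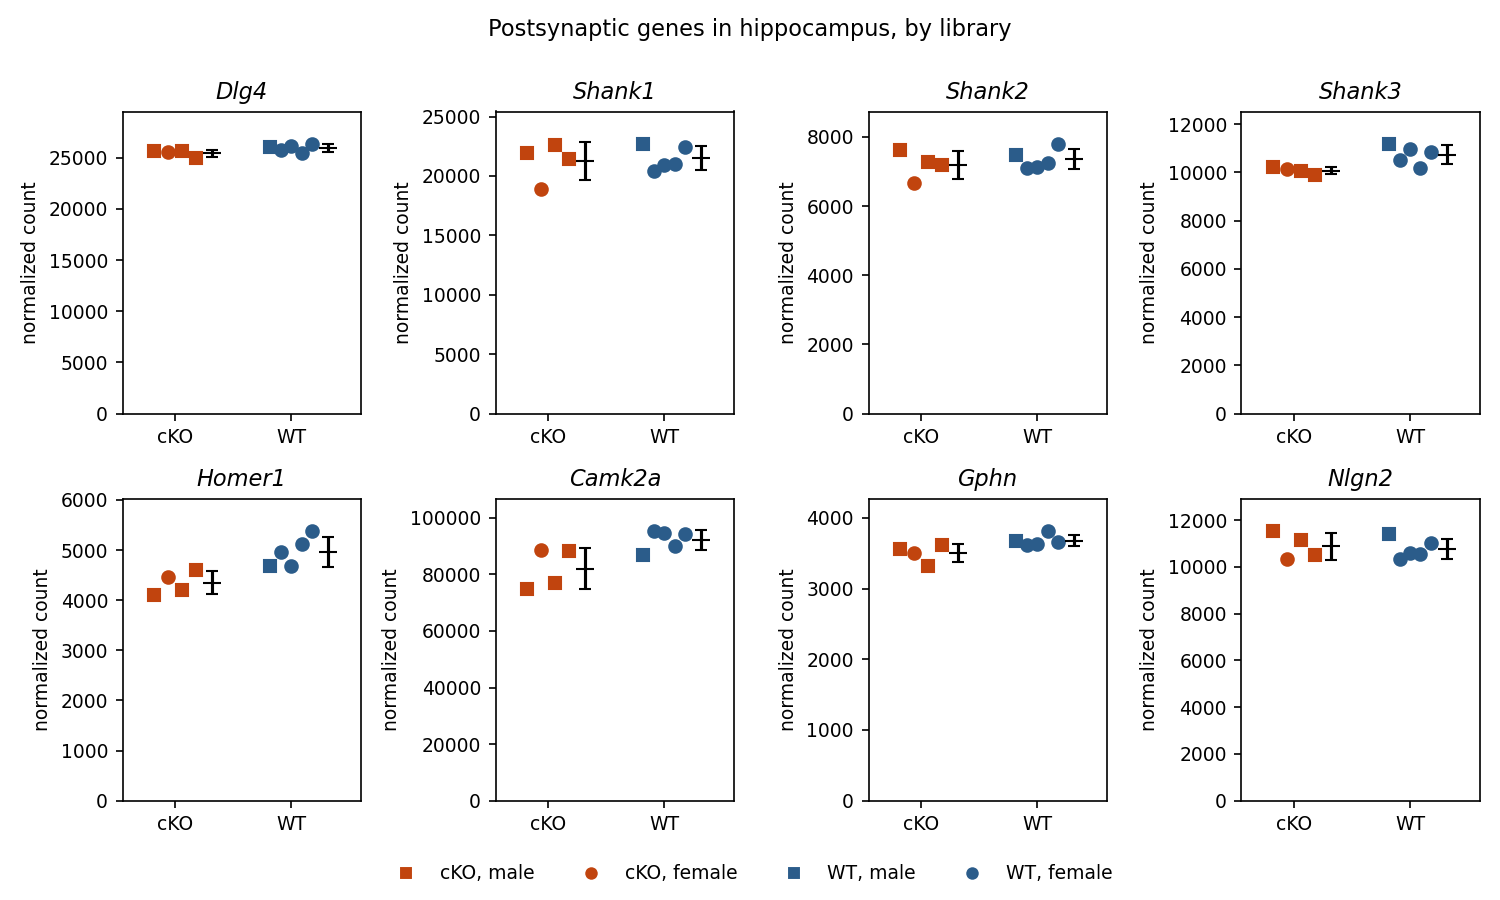
Normalized counts of each gene in every library, cKO left and WT right, with squares for males, circles for females and bars for mean ± SD (n = 4 and n = 5). Only in the Homer1 panel do all cKO points lie below all WT points, at 4108 to 4599 in cKO and 4676 to 5383 in WT.

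Of the 8 genes, 0 passed at an adjusted p under 0.05, where 0.346% of all 17036 genes tested passed, 0.123% higher and 0.223% lower in cKO. At an unadjusted limma p under 0.05, 3 of the 8 were lower in cKO (Homer1, Shank3 and Shank1) and 0 higher, where 6.40% of all genes were lower and 4.94% higher. DESeq2 and edgeR on the recovered reads also gave 0 of 8 at an adjusted p under 0.05, where 199 and 57 of all genes passed. They gave 3 of 8 each at an unadjusted p under 0.05. For these and the other alternatives the share of all genes under the unadjusted threshold was not computed. Changes in the count of the 8 between settings are therefore not a result about these genes. The median log2 fold change of the 8 genes was -0.09, against -0.0034 over all genes tested, and 8 of 8 were below 0 against 51.2% of all genes. This was not particular to the 8 genes, since all 8 oligodendrocyte precursor markers examined further on were below 0 too, at a median of -0.11. The count of the 8 postsynaptic genes below 0 was 8 under TMM scaling as well. It was 7 without a sex term, where Nlgn2 was above 0, and 6 with the pan-neuronal covariate described further on, where Dlg4 and Nlgn2 were. The count of 3 at an unadjusted p became 1 when cKO replicate 2 was left out, 2 when WT replicate 5 was, and 1 when WT replicates 2 and 5 both were. It was also 1 within males and with the meningeal covariate, and 0 with the pan-neuronal covariate. Which genes made up the 3 changed as well. Without a sex term, and without cKO replicate 4, Camk2a took the place of Shank1, whose unadjusted limma p was 0.698 and 0.0508. Within females, and without WT replicate 1, Shank2 took the place of Shank3. Both of these fits rest on 1 cKO female, with log2 fold changes of -0.14 for Shank2 and -0.07 for Shank3. The 8 genes are of 1 tissue and share their libraries, so they are not independent of each other. They were chosen as a list with results of these data known.

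The intervals hold for the model with sex and are not adjusted for the number of genes. Without a sex term the lower limits in log2 were -0.295 for Homer1 and -0.292 for Camk2a, against -0.264 and -0.227 with it. The lower 95% bound was -16.7% for Homer1, -14.6% for Camk2a, -13.1% for Shank1, -12.8% for Shank3, -11.8% for Shank2, -10.8% for Gphn, -8.91% for Nlgn2 and -7.19% for Dlg4. The upper bound was highest for Dlg4 at 3.52% and Nlgn2 at 3.44%. It was below 0 for Homer1 at -1.99%, Shank3 at -1.4% and Shank1 at -0.606%, though none of them passed after adjustment. The standard errors of the 8 genes ran from 0.0366 to 0.0584 on the log2 scale, below the median of 0.0815 over all genes tested.

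**Figure D3:**
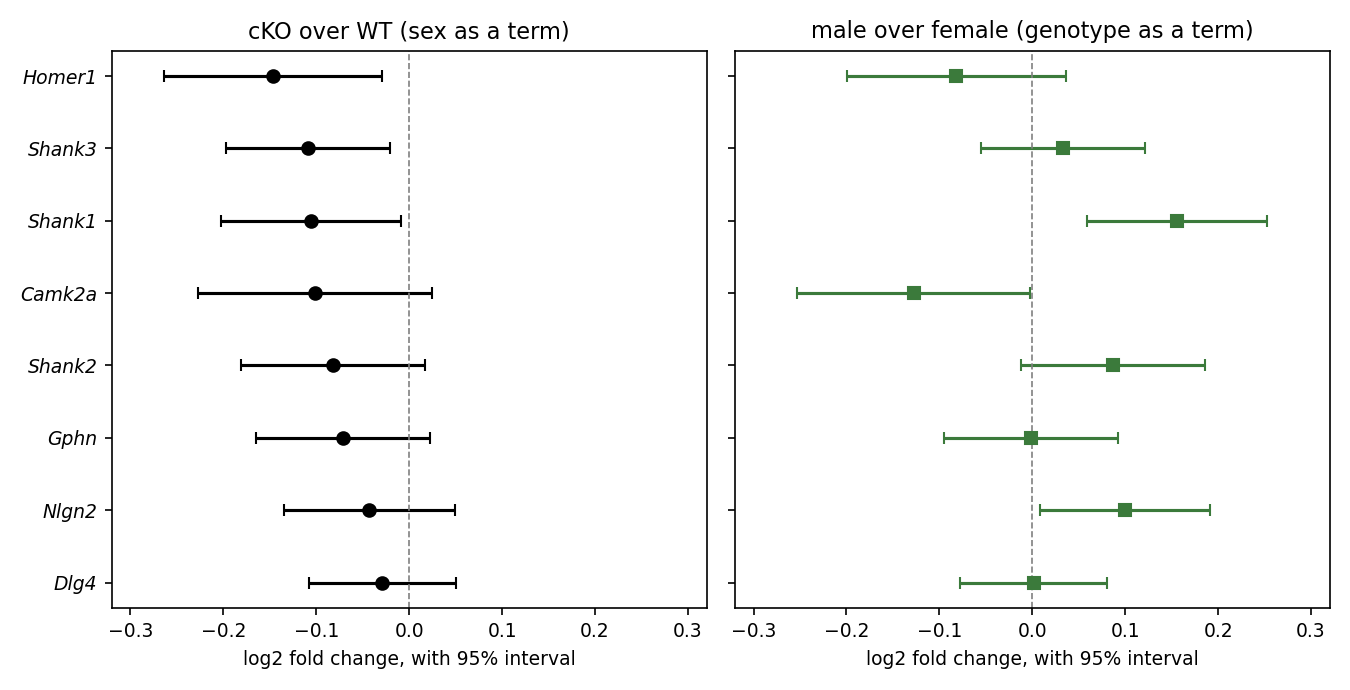
Fitted log2 fold changes with 95% intervals, cKO over WT at left and male over female at right, from 1 model with both terms (9 libraries). In the left panel all 8 points lie between -0.15 and -0.03, and in the right panel Shank1 lies highest at 0.16 and Camk2a lowest at -0.13.

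Males and females were compared in the same model, since they were unevenly split between the genotypes. Of the 8 genes, 0 passed between males and females at an adjusted p under 0.05, where 0.0528% of all genes did. Shank1 was at 21449 to 22699 normalized counts in the 4 males and 18941 to 22405 in the 5 females, with a log2 fold change of 0.16 ± 0.0450 for male over female (SE, unadjusted p = 0.00405, limma adjusted p = 0.640). Without cKO replicate 2, the lowest library, that difference was 0.10, and without WT replicate 1 it was 0.21. Nlgn2 averaged 11138 in males and 10562 in females, with a log2 fold change of 0.10 (unadjusted p = 0.0354, limma adjusted p = 0.731). Camk2a was at 74677 to 88294 in males and 88565 to 95408 in females, without overlap, with a log2 fold change of -0.13 ± 0.0584 (SE, unadjusted p = 0.0470, limma adjusted p = 0.739). Males and females did not overlap in 3.11% of all genes, and 6.73% had an unadjusted p under 0.05 for sex. Since 3 of the 4 males were cKO, these ranges carry genotype too, and the fitted values rest on a single WT male and a single cKO female. Without cKO replicate 2 the unadjusted limma p was 0.113 for Shank1, 0.109 for Nlgn2 and 0.222 for Camk2a, and without WT replicate 1 it was 0.00383 for Shank1, 0.142 for Nlgn2 and 0.0954 for Camk2a.

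No interaction of sex and genotype passed for any of the 8 genes, where 0.00587% of all genes, a single one, passed. The smallest unadjusted p among the 8 was that of Shank1, 0.199, where 7.90% of all genes were under 0.05.

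The 8 genes were compared in how their values deviated across the libraries. Shank1 and Shank2 were nearest to each other, with a root-mean-square difference of 0.0404 between their centred log2 values over the 9 libraries, where the values themselves deviated by 0.0788 and 0.0621 from their means. Homer1 and Camk2a were each other's nearest of the 8, at 0.0678, and varied the most of the 8 between libraries. In both of these genes cKO replicates 1 and 3 were the lowest of all libraries, whereas Shank1 was above its mean in those libraries and was lowest in cKO replicate 2. Nlgn2 was nearest to Shank2, at 0.0414, and Dlg4 to Shank3, at 0.0409. The difference of Dlg4 from Shank3 exceeded the deviation of Dlg4 from its own mean, 0.0224, so these 2 genes do not share a pattern by this measure. WT replicate 5 was above the mean of the gene in all 8 genes, and was the highest library in 3 of them, and WT replicate 1 was above it in 7 of 8. The cKO female, replicate 2, was below the mean in 7 of 8.

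**Figure D4:**
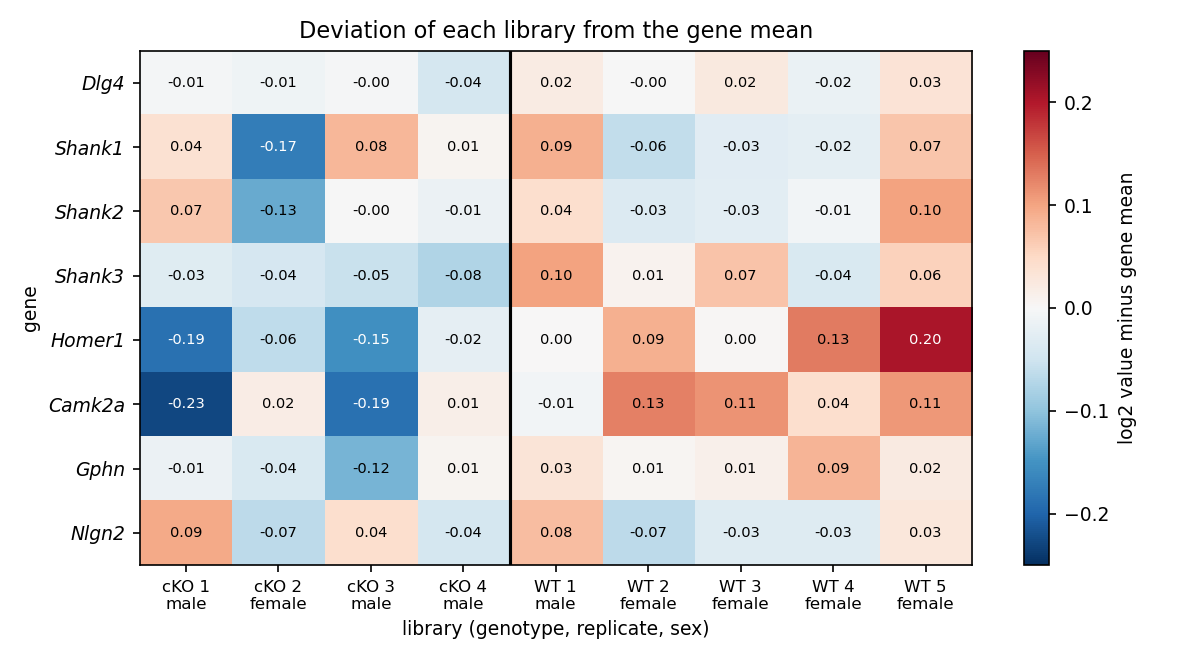
Deviation of each library's log2 value from the mean of the gene over all 9 libraries, with genes in rows and libraries in columns, cKO left of the line and WT right. Homer1 and Camk2a are darkest blue in cKO replicates 1 and 3, and Shank1 and Shank2 in cKO replicate 2.

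Over all 8836 other genes with a named symbol and a mean of at least 500, the gene nearest to each of the 8 by the same measure was found. For Homer1 it was Atp2b1, a plasma membrane calcium pump gene (0.0278), and for Camk2a it was Kctd1 (0.0387). For Shank1 it was Cacna1b, which encodes the pore subunit of N-type calcium channels (0.0224), for Shank2 the formin gene Fmn2 (0.0265) and for Shank3 Ergic1 (0.0140). For Dlg4 it was Atp6v0a1, a subunit of the vacuolar proton pump (0.0136), for Gphn the adenylosuccinate synthase gene Adss (0.0216) and for Nlgn2 the autophagy regulator gene Ambra1 (0.0190). These are descriptions of 9 libraries, and a gene that varies little lies near many others.

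Other genes of the postsynaptic machinery were examined in lists of 25 scaffold, 21 calcium signalling, 33 adhesion and 14 inhibitory postsynaptic genes, and 0 of them passed in either direction. Among the 25 scaffold genes the median log2 fold change was -0.07, with 18 below 0. Homer2, which encodes a relative of the Homer1 protein, had the smallest p. It held 3898, 3838, 4251 and 4036 normalized counts in cKO replicates 1 to 4, and 4712, 4691, 4495, 5040.4 and 5248 in WT replicates 1 to 5. The groups did not overlap, and cKO differed by -0.28 ± 0.0580 in log2 (SE, limma adjusted p = 0.0681). For Homer3, the remaining member of the family, it was 0.10 (limma adjusted p = 0.642). Lrrc7, which encodes densin-180, a partner of CaMKII, was at -0.20 and the GKAP family gene Dlgap2 at -0.11, with limma adjusted p of 0.280 and 0.417. Ppp1r9b, the spinophilin gene, and Dlgap3 were each at 0.05.

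Among the 21 calcium signalling genes the median was -0.06, with 15 below 0. Camkk2, a kinase that activates other calmodulin-dependent kinases, was at 5156 ± 354 normalized counts in cKO and 5987 ± 84.7 in WT (log2 fold change -0.20, limma adjusted p = 0.161). Camk4, a nuclear calmodulin-dependent kinase gene, had a log2 fold change of -0.24 (limma adjusted p = 0.223). Camk2d, which encodes the delta subunit of CaMKII, lay the other way from Camk2a. It held 3655, 2755, 3150.2 and 2792 normalized counts in cKO replicates 1 to 4, and 2455, 2321, 2619, 2513 and 2644 in WT replicates 1 to 5. The groups did not overlap, and cKO differed by 0.25 ± 0.0849 in log2 (SE, limma adjusted p = 0.297). Camk2n2, an inhibitor of CaMKII, was at 0.14 (limma adjusted p = 0.460), and Rasgrf1, a calcium-regulated exchange factor for Ras, at 0.06.

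Among the 33 adhesion genes the median was -0.04, with 22 below 0. Ephb2, an ephrin receptor of excitatory synapses, was at 2784 ± 64.7 normalized counts in cKO and 3158 ± 168 in WT, without overlap (log2 fold change -0.22 ± 0.0470, limma adjusted p = 0.0719). Nlgn1, the neuroligin of excitatory synapses, was at 4522 ± 179 in cKO and 4799 ± 107 in WT (log2 fold change -0.10, limma adjusted p = 0.386), and Mdga1, whose product binds neuroligin-2 and blocks it from neurexins, was at -0.12 (limma adjusted p = 0.407). Cbln1, a secreted synapse organiser, was at 607 ± 127 in cKO and 471 ± 42.9 in WT (log2 fold change 0.30, limma adjusted p = 0.469), and the adhesion genes Flrt3 and Lrrc4b were at 0.08 and 0.06. Among the 14 inhibitory genes the median was -0.06, with 10 below 0. Igsf9b, an adhesion gene of inhibitory synapses, was at -0.29 ± 0.0889, Insyn2a at -0.22 ± 0.0711 and Insyn1, another inhibitory synapse gene, at 0.10 ± 0.0495, with limma adjusted p of 0.243, 0.256 and 0.485. Enah was at -0.14, Clptm1 at 0.02 and the dystroglycan gene Dag1 at 0.01.

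Neuronal genes at large were measured beside these values. Of 15 pan-neuronal markers 0 passed, 13 were below 0 and the median log2 fold change was -0.08, close to the -0.09 of the 8 postsynaptic genes. The summed level of the 15 was 314200 to 321950 normalized counts in cKO and 329060 to 340510 in WT, without overlap, and 6 of the 15 were lower in cKO without overlap, where 3.72% of all genes tested were. Excitatory neuron markers summed to 121960 to 131560 in cKO and 131030 to 140250 in WT (15 genes, median -0.06), and inhibitory neuron markers to 38600 to 44426 in cKO and 38619 to 41306 in WT (16 genes, median 0.01). When the mean of the pan-neuronal markers entered the model, Homer1 had a log2 fold change of -0.15 ± 0.126, Camk2a of -0.25 ± 0.125, Gphn of -0.14 ± 0.0992, Shank3 of -0.09 ± 0.0953, Shank1 of -0.07 ± 0.104, Shank2 of -0.03 ± 0.106, Dlg4 of 0.0015 ± 0.0848 and Nlgn2 of 0.05 ± 0.0943 (SE). These errors are larger than without that term, and the markers themselves did not overlap between the groups in their sum.

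**Figure D5:**
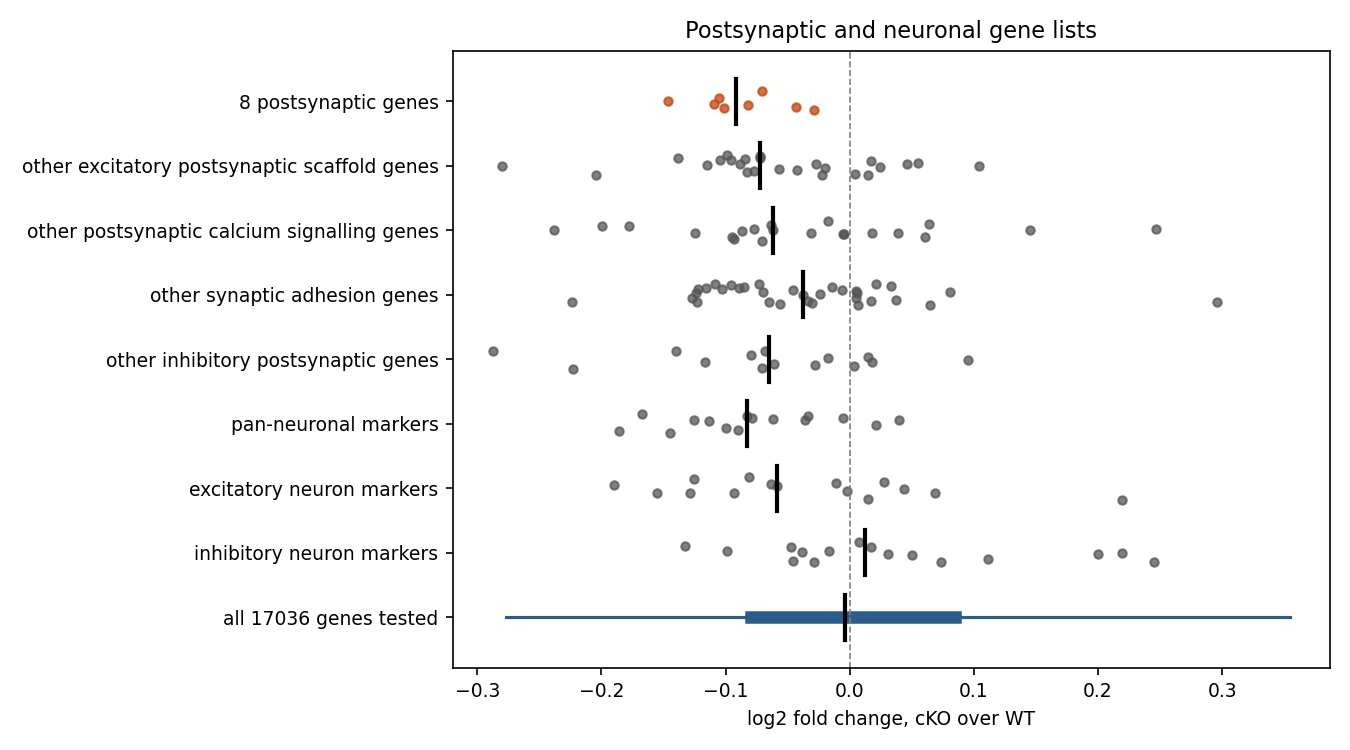
Log2 fold changes, cKO over WT, of the 8 postsynaptic genes, of other postsynaptic lists and of neuronal marker lists, 1 point per gene with a bar at the median. For all 17036 genes tested the thick line spans the 25th to the 75th percentile and the thin line the 5th to the 95th percentile, from -0.28 to 0.35. Medians of the 8 genes and of the pan-neuronal markers lie at -0.09 and -0.08, and that of all genes at -0.0034.

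Markers of other cells were present in every library, with none of the marker genes at 0. The summed level of 10 meningeal and fibroblast markers was 7995 to 9734 in cKO and 5727 to 9479 in WT, and of 10 oligodendrocyte markers 22492 to 34455 in cKO and 22133 to 32904 in WT. With sex in the model their median log2 fold changes were 0.31 and 0.22, with 1 and 0 genes below 0, and 0 passed in either list. At an unadjusted limma p under 0.05, 5 meningeal markers and 1 oligodendrocyte marker were higher in cKO, where 4.94% of all genes were. Sums of 10 microglia markers, 9405 to 10651 in cKO and 10667 to 11231 in WT, and of 8 oligodendrocyte precursor markers, 20637 to 21150 in cKO and 22090 to 23455 in WT, did not overlap. All 8 oligodendrocyte precursor markers were below 0, at a median log2 fold change of -0.11, and 2 were lower in cKO without overlap. Of the microglia markers 7 were below 0 (median -0.06) and 3 lower without overlap, where 3.72% of all genes tested were. The 12 astrocyte markers summed to 160510 to 169960 in cKO and 161130 to 177420 in WT, and among them 2 rose and 2 fell by limma at an adjusted p under 0.05. The median log2 fold change of the 12 was 0.05, with 5 below 0, and 1 was higher in cKO without overlap. Those that fell were the potassium channel gene Kcnj10 (log2 fold change -0.54, limma adjusted p = 5.54e-05) and the water channel gene Aqp4 (-0.35, limma adjusted p = 0.00206), both without overlap between the groups. The 2 that rose are not named, since at most 2 genes of a marker list are. The 10 endothelial markers summed to 8912 to 9878 in cKO and 9759 to 11293 in WT, and 1 of them fell, the VEGF receptor gene Flt1 (log2 fold change -0.34, limma adjusted p = 0.0417). Of these 10, 7 were below 0 (median -0.07) and 2 were lower in cKO without overlap. When the mean of the meningeal markers entered the model, Homer1 had a log2 fold change of -0.10 ± 0.0677 and Shank3 of -0.13 ± 0.0524 (SE), and 0 of the 8 genes passed. The part of the other cell types in the values of the 8 genes was not tested.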

How the data were processed

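Whole hippocampus of 4 cKO and 5 WT mice was sequenced from stranded libraries made together, per the labels' protocols. The tools used were STAR 2.7.10b, cutadapt 4.4, FastQC 0.12.1 and DESeq2 1.41.8, with the build GRCm39, per the submitters' processing notes. The sources used here name no counter, annotation or strand setting. The signal values deposited by the authors are read counts of genes scaled by 1 factor in each library and rounded. Dividing each library by its own step (0.943 to 1.08) made 100.0% of the values above 0 whole, with a tolerance of 0.1 read. In cKO replicate 1 and WT replicates 1 and 4 the step is so close to 1 that the check is weak.

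Genes with a mean of at least 10 (17036) were tested with limma-trend (limma 3.58.1, R 4.3.3) on log2(normalized count + 1). The model held genotype and sex, with Benjamini-Hochberg adjustment over all of them. This scale understates changes of low genes. A further fit held the interaction. edgeR 4.0.16 and DESeq2 1.42.0 were run on the recovered reads as alternatives, with other pseudocounts, filters, scaling, covariates and samples. The scripts were tested on simulated data. Levels per length used exon unions of GENCODE vM21 (GRCm38), which covered 16701 genes tested. Promoters came from RefSeq (GRCm38.p6). The remaining steps used matplotlib 3.10.9, numpy 2.4.6 and pandas 2.3.3 under Python 3.11.15.

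The 8 genes and all lists were chosen with earlier results of these data known. The selection rule refers to 10 symbols, of which 8 are reported here. The named genes were the 8, up to 3 per direction of each other postsynaptic list by p (1 of them is not reported here), at most 2 per marker list, and the nearest gene to each of the 8. Replicates follow record order. The chi-square per gene between libraries of the same group was 3.62 to 12.9, so none was counted as a copy of another. The labels do not name litters, so a p-value here reflects how much these samples vary, which may be partly technical.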

Additional observations from a re-analysis of the deposited data

How the results depend on the processing

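None of the 8 genes passed the threshold under any of the 23 alternatives for cKO against WT, nor for sex under those that hold a sex term. Of the cKO against WT directions, Nlgn2 turned to 0.012 without a sex term and to 0.052 with the pan-neuronal covariate, and Dlg4 to 0.0015 with that covariate. The covariate differs between the groups, and the cause of the turns was not tested. Leaving out each library in turn kept Homer1 at -0.17 to -0.12, Camk2a at -0.13 to -0.08, Shank1 at -0.16 to -0.05 and Shank3 at -0.15 to -0.07. With cKO replicate 2 or WT replicate 1 left out, the genotype difference rests on 1 sex alone. For male over female, Dlg4 turned to -0.0015 with edgeR and ranged from -0.0066 to 0.0092 with 1 library left out. Shank3 ranged from -0.011 to 0.074 and Gphn from -0.012 to 0.016 likewise, and Gphn turned to 0.0031 with TMM scaling and 0.00011 with DESeq2.

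The count over all genes, 59 for cKO against WT, was 199 with DESeq2, 216 without a sex term, 11 within the female libraries, 3 within the male libraries, 8 with the meningeal covariate, 0 with the pan-neuronal covariate and 15 without WT replicates 2 and 5, and it ran from 10 to 65 with 1 library left out. edgeR gave 57. For sex, 9 genes became 24 with DESeq2, and 9 to 16 with 1 library left out. For the interaction, 1 became 7 with DESeq2. Within 1 sex, the lone WT male or cKO female was assumed to vary like the other group. TMM scaling moved the median of all genes to -0.0059.

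No paired analysis was possible because the labels give no number shared between cKO and WT animals. Read counting alone gives the 8 genes a coefficient of variation of 0.332% to 1.67%. For Gphn in WT it is 1.66%, beside a measured 2.22%, and for Shank3 in cKO 0.981%, beside a measured 1.37%. Coefficients of variation do not add, so these are not shares of the spread. Depth limits both of these along with the number of animals.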
